A study of Mus musculus with 58 samples.

Results

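The T cell receptor complex genes described here were Cd3d, Cd3e and Cd3g, which encode the CD3 delta, epsilon and gamma chains, Lck and Zap70, which encode the kinases next to the receptor, and Cd4, Cd8a and Cd28, which encode the coreceptors and a costimulatory receptor. They were chosen by name, and their probes were found by matching the accession in the array files to a gene symbol. These 8 genes were measured by 11 probes, out of 20018 genes with a symbol and 55681 probes on the array. Cd4, Cd8a and Zap70 each had 2 probes, and the probe with the brighter sample signal stood for the gene. The samples came from 20 males of the Muta™Mouse, a transgenic strain carrying a bacterial reporter gene for mutation assays, all 10 weeks old, from which the lung, the liver and the forestomach were taken. Every animal, controls included, was gavaged with olive oil on 28 consecutive days, and tissue was taken 72 h after the last dose. Mice 1 to 5 (D0) received the oil alone, and mice 6 to 10 (D1), 11 to 15 (D2) and 16 to 20 (D3) received benz(a)anthracene (BaA), one of the polycyclic aromatic hydrocarbons, in the oil at daily doses of 20 (D1), 40 (D2) and 80 (D3) mg/kg-bw. There were 58 two-colour arrays, 1 for each tissue of a mouse, with 20 lungs, 19 livers (mouse 20 was not analysed here) and 19 forestomachs (mouse 5 was not analysed here). All values are log2 ratios of the sample (Cy5) to a common reference RNA pooled from mouse cell lines (Cy3), so a value of 0 means the signal of the reference and a difference of 1 is a doubling. The questions were how far these genes differed between the tissues and whether their levels moved with the dose of BaA.

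The T cell receptor binds a peptide held by a major histocompatibility molecule, and the CD3 chains carry the motifs in the cytoplasm that pass the signal on. Lck, held at the coreceptors CD4 and CD8, phosphorylates those motifs, after which ZAP-70 docks on them and phosphorylates the adaptors downstream, while CD28 gives the second signal that a resting T cell needs. Lung holds resident and circulating T cells, and double-positive thymocytes in the thymus carry CD4 and CD8 at the same time. In whole tissue, fewer T cells and less RNA per T cell cannot be told apart.

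The genes of the CD3 chains lie beside each other, which is why their promoters are shown first, with those of Lck, a gene with more than one start site. Windows of 300 bases (250 before and 50 after the start) were held in the RefSeq promoter table of build GRCm38.p6 for 6 of the 8 genes, 9 windows in all, and none was printed for Cd4 or Cd28. The Cd3g and Cd3d starts are 1355 bases apart on opposite strands, and the Cd3d and Cd3e starts are 27.8 kb apart. Capitals mark the letters searched on both strands, which were TGTGGT (the core bound by RUNX factors), GGAAGT (an ETS core) and CAGGTG (an E-box).
Cd3g, chr9:44980382-44980681, minus strand: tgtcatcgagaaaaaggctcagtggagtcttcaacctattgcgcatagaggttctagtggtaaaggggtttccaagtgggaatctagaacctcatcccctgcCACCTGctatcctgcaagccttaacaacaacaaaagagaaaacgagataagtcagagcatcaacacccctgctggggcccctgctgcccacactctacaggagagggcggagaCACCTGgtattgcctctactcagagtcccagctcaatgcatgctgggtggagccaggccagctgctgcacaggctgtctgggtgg
Cd3d, chr9:44981536-44981835, plus strand: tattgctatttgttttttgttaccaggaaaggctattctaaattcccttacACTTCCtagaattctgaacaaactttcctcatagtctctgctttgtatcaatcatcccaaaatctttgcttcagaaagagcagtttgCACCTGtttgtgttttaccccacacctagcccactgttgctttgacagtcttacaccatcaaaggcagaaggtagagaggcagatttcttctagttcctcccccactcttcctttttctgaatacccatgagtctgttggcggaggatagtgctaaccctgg
Cd3e, chr9:45009562-45009861, minus strand: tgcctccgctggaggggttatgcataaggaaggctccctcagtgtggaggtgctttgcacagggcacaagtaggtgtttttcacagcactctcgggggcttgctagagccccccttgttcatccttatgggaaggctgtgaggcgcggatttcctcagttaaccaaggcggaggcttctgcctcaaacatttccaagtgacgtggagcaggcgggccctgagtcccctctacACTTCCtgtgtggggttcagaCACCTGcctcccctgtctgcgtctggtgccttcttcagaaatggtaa
Lck, first start, chr4:129573592-129573891, minus strand: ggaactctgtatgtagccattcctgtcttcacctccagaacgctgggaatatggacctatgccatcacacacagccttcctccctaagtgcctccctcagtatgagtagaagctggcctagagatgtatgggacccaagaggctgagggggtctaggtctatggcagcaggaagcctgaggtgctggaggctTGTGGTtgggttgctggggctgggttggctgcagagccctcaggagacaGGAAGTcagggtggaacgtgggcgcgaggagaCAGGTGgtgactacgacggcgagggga
Lck, second start, 15.3 kb away, chr4:129558323-129558622, minus strand: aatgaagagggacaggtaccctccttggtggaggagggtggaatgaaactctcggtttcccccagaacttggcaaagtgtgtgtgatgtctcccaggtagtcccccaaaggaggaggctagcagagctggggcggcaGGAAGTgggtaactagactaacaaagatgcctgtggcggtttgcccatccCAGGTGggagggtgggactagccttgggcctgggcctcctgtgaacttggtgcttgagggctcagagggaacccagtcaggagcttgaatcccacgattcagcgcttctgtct
The E-box letters stood in each of the 5 windows shown, once in Cd3d, Cd3e and both Lck windows and 2 times in Cd3g. They were found in 20.2% of the 32851 promoter windows of the table. The ETS letters stood once in Cd3d, Cd3e and both Lck windows and were found in 23.8% of all windows. The RUNX letters, found in 16.8% of all windows, stood in the first Lck window only among the 5. Of the 4 windows not shown, the first Zap70 window held the E-box letters 2 times and the third once, the second held the RUNX and ETS letters once each but no E-box, and the Cd8a window held none of the 3 motifs. Over all 9 windows the E-box letters stood in 7, the ETS letters in 5 and the RUNX letters in 2. These matches describe letters and were not tested as binding sites.

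The labelled tissues carried their own markers. All 7 lung markers were well above background on every lung array, all 7 liver markers on every liver array, and 6 or 7 of 7 squamous epithelium markers on every forestomach array. Between 34.1% and 69.2% of the spots on an array were well above background in the sample channel, and a probe was kept for testing where at least 4 arrays of the tissue passed, which left 30381 for lung, 22786 for liver and 32313 for forestomach. All 8 genes were kept in lung. Cd8a and Cd28 dropped out in liver, where both were well above background on 0 of 19 arrays, and Cd3d and Cd8a dropped out in forestomach, where they passed on 3 and 0 of 19 arrays. Some arrays stood apart. The lung of D0 mouse 5 had a squamous marker mean of 3.94, against at most 2.08 in the other 19 lungs. The lung at 2.08 was a D3 lung, in a group with a median of -0.14. The glandular stomach markers ranged from 0.79 to 6.65 over the forestomachs, with all 5 D1 arrays between 5.25 and 6.65. The lung of D3 mouse 17 stood apart in the T cell genes themselves, so it is described before the doses. The main dose results in lung are given with and without it. The comparisons of D0 tissues are given with it in the fit unless stated.

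In the lung of mouse 17, a D3 animal, 7 of the 8 genes had their highest value of all 20 lungs. Cd8a, one chain of the CD8 coreceptor, was 2.99 there and between 0.26 and 0.97 in the other 19 lungs. Lck was 1.33 against -1.35 to -0.09 in the others. Cd3d was 4.55 against 2.43 to 3.34. These values put mouse 17 above the median of the other lungs by 5.36-fold for Cd8a, 4.41-fold for Lck and 3.28-fold for Cd3d. The gap was 3.12-fold for Cd3g, 2.63-fold for Cd28 and 2.22-fold for Cd3e. It was smaller for Zap70, at 1.54-fold. Cd4, at 0.66, ranked 3 among the 20 lungs and was 1.18-fold above the median of the others. The second Cd4 probe was highest in mouse 17, at 0.37 against at most 0.27 in the other 19. That probe was well above background on only 1 of the 20 lungs. The second Cd8a probe gave 2.55 for this lung. Probes on which mouse 17 exceeded every other lung by at least 1 on the log2 scale were few, 38 of 30381 (0.125%), and 5 of the 8 genes were among them. The number alone did not mark this lung, since mouse 5 had 243 such probes, mouse 14 had 47, mouse 7 had 43 and mouse 8 had 36. The gap was found on the same values that are described, so it carries no test.

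**Figure D1:**
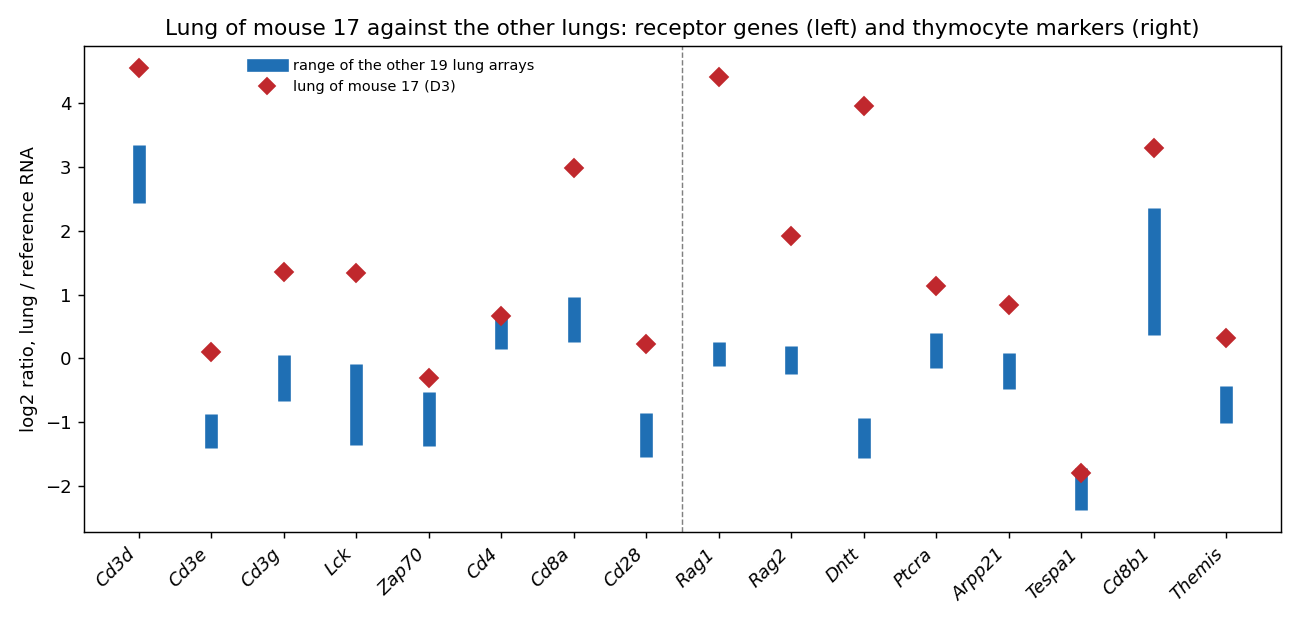
Log2 ratio (sample over reference) in lung of the T cell receptor complex genes and of thymocyte markers, with the lung of D3 mouse 17 as a diamond and the range of the other 19 lungs as a bar. Mouse 17 lies above the bar for every receptor gene except Cd4 (brighter probe), and Rag1 and Dntt lie farthest above their bars.

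Genes of developing T cells were high in the same lung. Of the 8 thymocyte markers, all 8 were well above background in mouse 17, against 2 to 4 in the other lungs, and their mean was 1.76 against -0.52 to -0.23. Rag1, which cuts DNA to rearrange receptor genes, was 4.40 against -0.12 to 0.26, and it was well above background in 0 of the 19 other lungs. Rag2, its partner, was 1.92 against -0.24 to 0.19, also with 0 of 19 others well above background. Dntt, the terminal transferase that adds bases at receptor gene joints, was 3.95 against -1.56 to -0.94, with 14 of the 19 others well above background. Cd8b1, the second CD8 chain, was 3.29 against 0.37 to 2.36. Ptcra, the surrogate alpha chain of the pre-T cell receptor, was 1.13 against -0.15 to 0.39, while Tespa1 was -1.79 and lay inside the range of the others. Cd8b1 and Themis, 0.31 here, are also genes of mature T cells. B cell markers (1.72 against 0.93 to 2.12), NK cell markers (1.76 against 1.00 to 2.30) and lymph node stroma markers (1.49 against 1.09 to 2.54) of mouse 17 lay within the range of the other lungs. The part of the thymocyte genes in the high values was not tested. In the liver of the same mouse Cd3d was 0.30 and Rag1 0.12, and in its forestomach Cd3d was -0.43 and Rag1 -0.08, below the highest value of each tissue. Dntt was 1.67 in the liver of this mouse and up to 3.50 in the other livers, so a high Dntt value was not particular to the lung of mouse 17.

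No T cell receptor complex gene passed the test at any dose in lung. The test was limma's moderated test, which borrows the spread across probes, with Benjamini-Hochberg adjustment over the 30381 probes, and a gene was called at an adjusted p of at most 0.05 and a fold of at least 1.5. Of the 8 genes, 0 were called at D1, D2 and D3, where 0%, 0.553% and 1.88% of all tested probes were called. At an unadjusted p under 0.05 there were 0, 1 and 3 of them, Cd4 at D2 and Cd3d, Zap70 and Cd8a at D3. The share of all tested probes at that level was 7.47%, 16% and 23.8% at D1, D2 and D3. Without mouse 17 the counts of the 8 genes at that level were 0, 3 and 2. The share of all probes was counted with all mice only. The median difference from D0 over the 8 genes was 0.14 at D1, 0.18 at D2 and 0.40 at D3, beside a median of 0.00 over all tested probes at each dose. At D3, 7 of the 8 differences were above 0. Without mouse 17 the median at D3 was 0.09, 6 of 8 were above 0, the lowest adjusted p was 0.212, and 1.48% of all probes were called. Without mouse 5, the lung with the highest squamous markers, 0 of the 8 genes were called at each dose too. All dose comparisons share the D0 lungs.

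**Figure D2:**
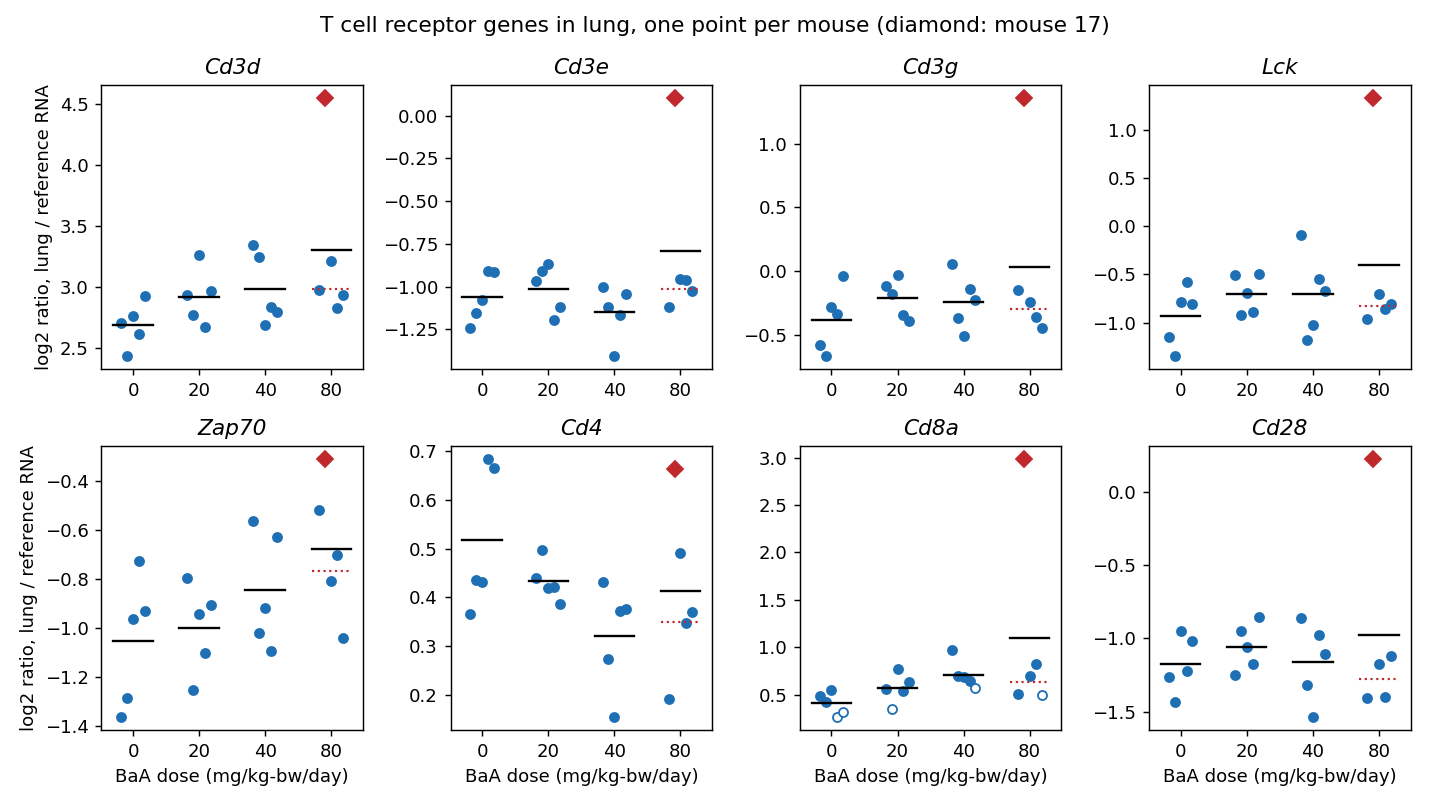
Log2 ratio (sample over reference) in lung by dose of BaA (mg/kg-bw/day), 1 panel for each gene and 1 point for each mouse (5 at each dose), with open points not well above background, the group mean as a black line, mouse 17 as a diamond and the D3 mean without it as a red dotted line. The D3 mean of Cd8a moves from 1.10 to 0.63 when mouse 17 is left out, against 0.41 at D0.

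Among the CD3 chains, Cd3d had the largest difference. In D0 lungs Cd3d was 2.70, 2.43, 2.76, 2.61 and 2.92 (mice 1 to 5). In D1 it was 2.93, 2.77, 3.26, 2.67 and 2.96, and in D2 it was 3.34, 3.24, 2.69, 2.84 and 2.79. In D3 it was 2.97, 4.55, 3.21, 2.82 and 2.93. Mouse 17 was far above the rest, mice 8, 11, 12 and 18 were the next highest, and every dose group overlapped D0. The Cd3d difference at D3 was 0.61 (95% interval 0.12 to 1.11), with an adjusted p of 0.116 by limma. Without mouse 17 it was 0.30 (0.00 to 0.60), with an adjusted p of 0.247 by limma. Each of the 3 array slides held all 4 dose groups, with 1 or 2 lungs of a group. The Cd3d difference was 0.07 and 0.30 on the 2 slides without mouse 17. On the slide that carried mouse 17 the Cd3d means were 2.56 in D0 and 3.76 in D3, and the difference was 0.41 without that mouse.

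Cd3g in D0 lungs was -0.58, -0.67, -0.28, -0.33 and -0.04, and in D3 lungs -0.15, 1.36, -0.24, -0.36 and -0.45. Outside mouse 17, the D3 values lay within the D0 range. The Cd3g difference at D3 was 0.41 (-0.09 to 0.92) with mouse 17 and 0.08 (-0.19 to 0.35) without it. Cd3e, the chain that pairs with both other CD3 chains, was -1.24, -1.16, -1.08, -0.91 and -0.92 in D0 and -1.12, 0.10, -0.96, -0.96 and -1.02 in D3. Again only mouse 17 was outside the D0 range at D3. The Cd3e difference was 0.27 (-0.08 to 0.62) with it and 0.05 (-0.15 to 0.25) without it. At D1 and D2 the differences of the 3 chains lay between -0.09 and 0.30, and none of their adjusted p values was under 0.59.

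Of the 2 kinases, Lck set mouse 17 farther apart than Zap70 did. Lck in D0 lungs was -1.15, -1.35, -0.79, -0.57 and -0.81, and in D3 lungs -0.97, 1.33, -0.70, -0.86 and -0.81. The D3 lungs other than mouse 17 lay within the D0 range. The Lck difference at D3 was 0.54 (-0.14 to 1.21) with mouse 17, and 0.10 (-0.28 to 0.49) without it, with adjusted p values of 0.335 and 0.816 by limma. Zap70 in D0 lungs was -1.37, -1.28, -0.97, -0.73 and -0.93. In D1 it was -0.80, -1.25, -0.95, -1.10 and -0.91, and in D2 it was -0.57, -1.02, -0.92, -1.09 and -0.63. In D3 it was -0.52, -0.31, -0.81, -0.70 and -1.04. Here 3 D3 mice, 16, 17 and 19, were above every D0 lung, and the groups overlapped through mice 18 and 20. The Zap70 difference at D3 was 0.38 (0.08 to 0.68) with an adjusted p of 0.111, and 0.29 (-0.02 to 0.59) without mouse 17. Its second probe gave 0.30 (0.01 to 0.60). On the slides, with 1 or 2 lungs of a group on each, the Zap70 difference was 0.91, 0.26 and -0.10, so it was above 0 on 2 of 3. The 0.91 came from the slide with mouse 17 and was 0.81 without that mouse.

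Of the coreceptors, Cd8a in D0 lungs was 0.48, 0.43, 0.55, 0.26 and 0.32. In D2 lungs it was 0.97, 0.70, 0.69, 0.65 and 0.57, and in D3 lungs 0.51, 2.99, 0.70, 0.83 and 0.50. The D2 values were all above the D0 values, the only such separation among the 8 genes in lung, while 4.57% of all tested probes had non-overlapping groups at D2 (1.05% at D1 and 7.51% at D3). The highest D0 value (0.55) and the lowest D2 value (0.57) nearly touched, and 15 of the 20 lungs had Cd8a well above background. The Cd8a difference at D2 was 0.30 (-0.35 to 0.96), with an adjusted p of 0.688 by limma. Without mouse 17, which widens the common spread, the interval at D2 was 0.11 to 0.50 and the adjusted p was 0.103. At D3 the Cd8a difference was 0.69 (0.04 to 1.35) with mouse 17 and 0.22 (0.02 to 0.43) without it, with adjusted p values of 0.181 and 0.212 by limma. Cd4, the coreceptor of helper T cells, was 0.37, 0.44, 0.43, 0.68 and 0.67 in D0 lungs and 0.19, 0.66, 0.49, 0.35 and 0.37 in D3 lungs. Its values overlapped at every dose, and its D3 difference was -0.10 (-0.28 to 0.07). At D2 the Cd4 difference was -0.20 (-0.37 to -0.02), with an adjusted p of 0.259 by limma. With each array centred on its median instead of loess, the D3 difference of Cd4 was 0.16, so its direction depends on the scaling. Cd28 was -1.26, -1.44, -0.95, -1.22 and -1.02 in D0 lungs and -1.41, 0.22, -1.17, -1.40 and -1.12 in D3 lungs. Only mouse 17 left the D0 range, and the Cd28 difference was 0.20 (-0.27 to 0.67) with it and -0.10 (-0.37 to 0.18) without it.

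A straight line over the dose was fitted as well. Of the 8 genes 0 had a slope in lung that passed an adjusted p of 0.05, where 11.6% of all tested probes did. The Zap70 slope was 0.0049 log2 units per mg/kg-bw/day (95% interval 0.0015 to 0.0084), with an adjusted p of 0.0569 by limma. It was 0.0038 with an adjusted p of 0.175 without mouse 17. Leaving out D0 mouse 4 or D3 mouse 20 brought the adjusted p of the Zap70 slope to 0.0305 and 0.0205 by limma. The Cd3d slope was 0.0073 (adjusted p 0.0868) and the Cd8a slope 0.0087 (adjusted p 0.122). Without mouse 17 the adjusted p values of these slopes were 0.246 and 0.199 by limma, and 7.85% of all probes had a slope that passed.

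The tissues differed far more than the doses. In D0 animals, 5 of the 8 genes differed between lung and liver, 5 of 8 between lung and forestomach and 4 of 7 between liver and forestomach, with 46.6%, 30.8% and 39.1% of all tested probes called in the same comparisons. These tests came from 1 model over all 12 groups of tissue and dose. Each slide held 1 tissue only. With the slide as a random block, an alternative chosen after seeing the data, the calls were the same except that Cd3g no longer passed between liver and forestomach.

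**Figure D3:**
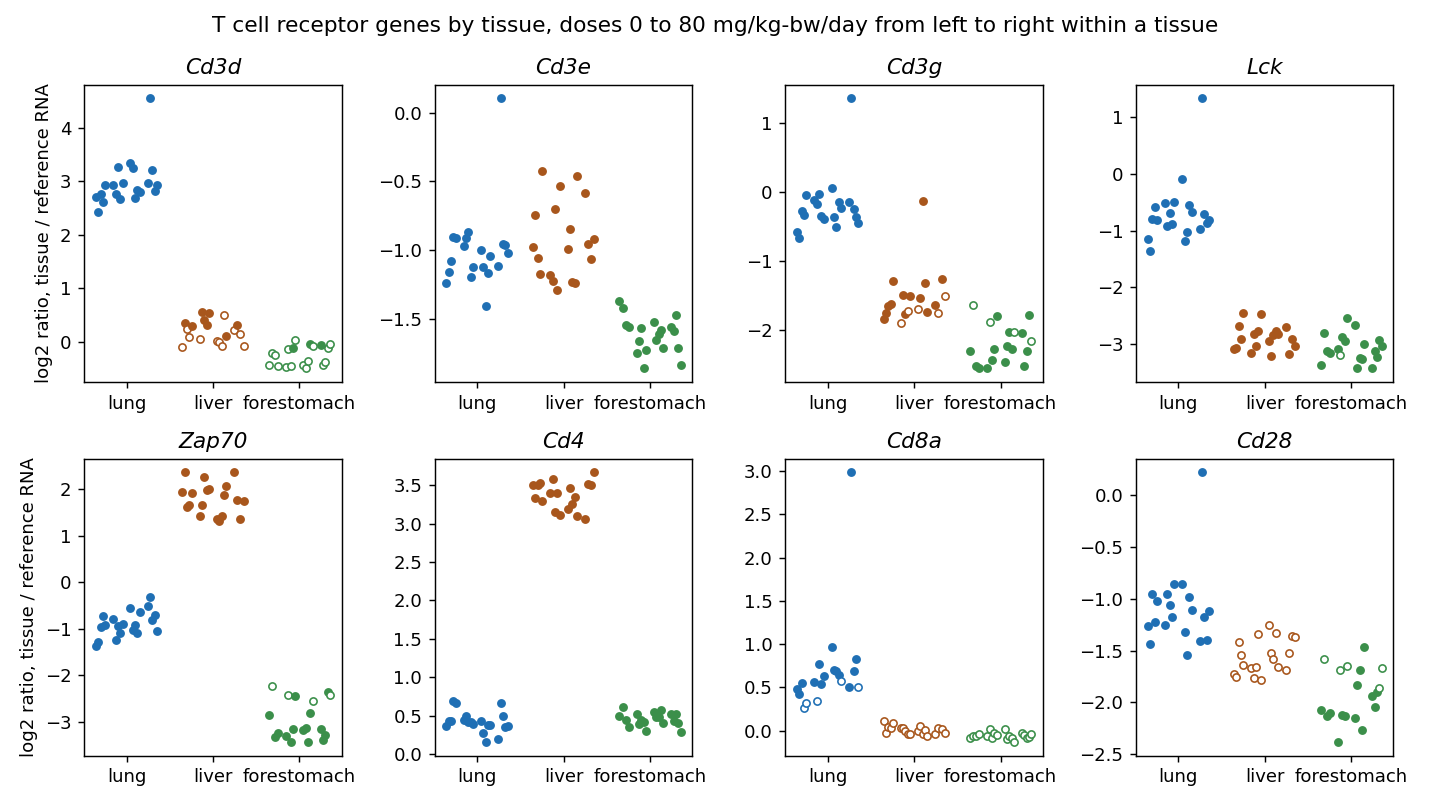
Log2 ratio (sample over reference) of each gene in lung, liver and forestomach, 1 point for each array (20, 19 and 19), with the doses from D0 to D3 placed left to right within a tissue and open points not well above background. Cd3d, Cd3g and Lck are highest in lung, Zap70 and Cd4 are highest in liver, and single points stand apart from their tissue for mouse 17 in lung and for Cd3g of D2 mouse 13 in liver (-0.13).

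Cd3d showed the widest gap among the CD3 chains. It was 2.68 ± 0.18 (SD, n = 5) in D0 lung, 0.18 ± 0.18 (n = 5) in D0 liver and -0.34 ± 0.13 (n = 4) in D0 forestomach. The liver values were -0.10, 0.35, 0.23, 0.10 and 0.30 and the forestomach values -0.44, -0.22, -0.26 and -0.46, all below the lowest lung. Lung exceeded liver by 2.51 (95% interval 2.15 to 2.87), with an adjusted p of 5.25e-18 by limma, although Cd3d was well above background on only 2 of the 5 D0 livers. No D0 forestomach measured it, so the gap there is a bound from the Cy5 signals alone. Lung was at least 7.5-fold higher than forestomach (adjusted p 1.59e-19 by limma for the measured ratios). Such Cy5 bounds are open to dye bias, since no dyes were swapped.

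Cd3g ranked in the same order, at -0.38 ± 0.25 in lung, -1.63 ± 0.21 in liver and -2.26 ± 0.43 in forestomach (SD, n = 5, 5 and 4). The D0 livers ran from -1.84 to -1.29 and the forestomachs from -2.56 to -1.64, which overlap each other but not the lungs. Lung exceeded liver by 1.25 (0.79 to 1.71) and forestomach by 1.88 (1.39 to 2.37), with adjusted p values of 3.77e-06 and 3.73e-09 by limma. Cd3e did not follow that order. It was -1.06 ± 0.15 in lung, -0.88 ± 0.30 in liver and -1.48 ± 0.09 in forestomach. The Cd3e livers, -0.98, -0.75, -1.06, -1.17 and -0.42, straddled the lungs, and the lung minus liver difference was -0.18 (-0.49 to 0.13), which did not pass. The livers of mice 2 and 5, at -0.75 and -0.42, shared 1 slide, on which Cd3e ran from -0.75 to -0.42 over all doses. On the other liver slides Cd3e ran from -1.29 to -0.92 and from -1.23 to -0.85. The part of the slide in the Cd3e differences was not tested. Lung and forestomach differed by 0.42 (0.09 to 0.75), under the fold of 1.5. Liver exceeded forestomach by 0.60 for Cd3e (adjusted p 0.00136) and by 0.63 for Cd3g (adjusted p 0.0234). With each array centred on its median these differences between liver and forestomach were -0.28 and -0.21, so neither direction holds under that scaling.

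The kinases split between the tissues. Lck was -0.94 ± 0.31 in lung, -2.84 ± 0.27 in liver and -3.11 ± 0.23 in forestomach. Lung exceeded liver by 1.90 (1.43 to 2.38) and forestomach by 2.18 (1.68 to 2.68), and the lowest D0 lung (-1.35) lay above the highest D0 liver (-2.45). The liver and forestomach values of Lck overlapped and differed by 0.27 (-0.23 to 0.77). Zap70, in contrast, was highest in liver. Its D0 livers were 1.93, 2.36, 1.61, 1.65 and 1.91, its D0 lungs averaged -1.05 ± 0.26, and its D0 forestomachs were -2.85, -2.24, -3.34 and -3.24. No tissue overlapped another. Lung was below liver, with a difference of -2.95 (-3.39 to -2.51), and liver exceeded forestomach by 4.81 (4.34 to 5.27), with adjusted p values of 2.29e-17 and 1.32e-24 by limma. The second Zap70 probe was also high in liver, at 2.02 ± 0.25 (SD, n = 5), and its lung minus liver difference was -3.05 (-3.42 to -2.69).

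Cd4 was likewise highest in liver, at 3.50, 3.33, 3.50, 3.53 and 3.30 in the D0 animals. The D0 lungs (0.52 ± 0.15) and forestomachs (0.47 ± 0.11) were far below and overlapped each other. Lung minus liver was -2.91 (-3.09 to -2.73), with an adjusted p of 2.30e-33 by limma, and lung minus forestomach was 0.05 (-0.15 to 0.24). The second Cd4 probe did not show this. It read 0.22 ± 0.08 in D0 liver and was well above background on 0 of 19 livers, 1 of 20 lungs and 12 of 19 forestomachs. The high liver value of Cd4 therefore rests on 1 of its 2 probes. Cd8a was well above background on 3 of 5 D0 lungs and on no D0 liver or forestomach. The Cy5 bounds for Cd8a put lung at least 1.05-fold above liver and at least 1.14-fold above forestomach. The measured lung minus liver difference of Cd8a was 0.36 (-0.04 to 0.76), with an adjusted p of 0.103 by limma. Lung minus forestomach was 0.47 (0.04 to 0.89), with an adjusted p of 0.0560, and neither difference passed. Without mouse 17 in the fit these adjusted p values were 3.81e-06 and 9.85e-08 by limma. The differences, 1.28-fold and 1.38-fold, then fell short only of the fold needed. Cd28 was -1.18 ± 0.20 in lung and -1.97 ± 0.26 in forestomach, a difference of 0.79 (0.41 to 1.18) with an adjusted p of 0.000391 by limma. With each array centred on its median this Cd28 difference was 0.27 and was no longer called. In liver Cd28 was not well above background on any array, and the measured lung minus liver difference, 0.44 (0.08 to 0.80), fell short of the fold needed.

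In liver and forestomach no receptor complex gene passed the test at any dose. In liver 0 of the 6 tested genes were called, where 0.241%, 0.597% and 0.434% of all probes were called at D1, D2 and D3. At each dose 0 of the 6 had an unadjusted p under 0.05, where 7.51%, 12.7% and 15% of all probes did. All dose groups of these 6 genes overlapped D0 in liver, where 1.28%, 2.75% and 5.21% of all probes had groups that did not. Their differences at D3 lay between -0.12 (Lck, -0.43 to 0.19) and 0.09 (Cd3g, -0.40 to 0.58). The largest at any dose was Cd3g at D2, 0.35 (-0.12 to 0.81). It came from mouse 13, at -0.13, while the other D2 livers were -1.71, -1.53, -1.32 and -1.75. In forestomach 0 of the 6 tested genes were called, where 0%, 0.0124% and 0.0248% of all probes were. Cd3e at D1 was the only gene with an unadjusted p under 0.05 there, where 4.42%, 3.3% and 5.1% of all probes were at D1, D2 and D3. Its D0 values were -1.38, -1.42, -1.55 and -1.56 and its D1 values -1.75, -1.67, -1.57, -1.86 and -1.73. The D1 values lay just below all D0 values, and 1.42% of all probes had groups that did not overlap at D1. At D2 and D3 all 6 genes overlapped D0 in forestomach, where 1.18% and 1.97% of all probes did not. The Cd3e difference was -0.24 (-0.41 to -0.07), with an adjusted p of 0.967 by limma, and the D1 forestomachs are those with high glandular stomach markers, whose part was not tested. The slope on dose was called for 0 of the 6 genes in each of these tissues, against 0.658% of all probes in liver and 0.0248% in forestomach.

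**Figure D4:**
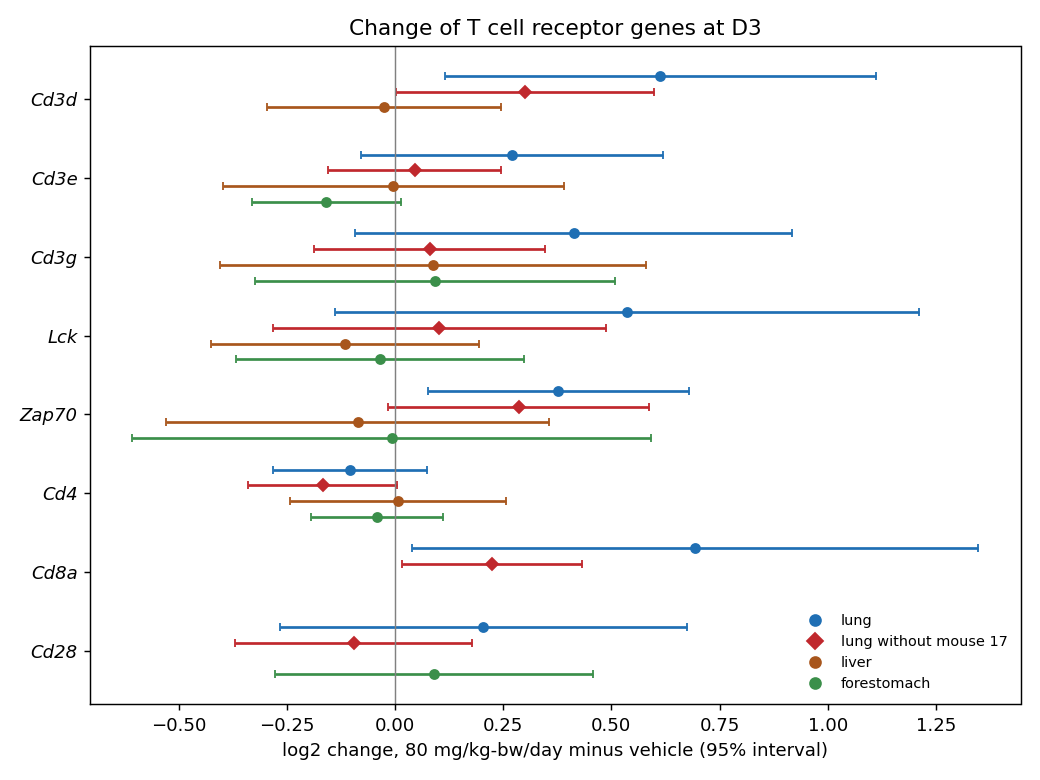
Difference between D3 and D0 (log2) of each tested gene with its 95% interval, in lung, in lung without mouse 17, in liver and in forestomach. The lung interval of Cd3d runs from 0.12 to 1.11 with mouse 17 and from 0.00 to 0.60 without it, and every interval in liver and forestomach spans 0.

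No difference of the D3 effect between tissues passed the test. The interaction was called for 0 of 6 genes between lung and liver, 0 of 6 between lung and forestomach and 0 of 5 between liver and forestomach, where 2.08%, 0.26% and 0.0453% of all probes were called with the thresholds used for the doses. At an unadjusted p under 0.05 there were 1, 0 and 0, where 13.4%, 8.39% and 6.9% of all probes were. The largest differences of effect were between lung and liver. For Lck the difference of effects was 0.65 (-0.04 to 1.34), with an adjusted p of 0.411 by limma, and for Cd3d it was 0.64 (0.12 to 1.16), with an adjusted p of 0.230. Without mouse 17 they were 0.15 and 0.38. The intervals leave room for differences of effect above 1 on the log2 scale in lung against liver.

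Other genes of T cell receptor signalling were described from lists of 80 genes, covering other chains and coreceptors, proximal signalling, inhibitors, costimulation and checkpoints, response genes, and T lineage factors and homing receptors. In lung 70 of them were tested, and 0 were called at D1, 2 at D2 and 5 at D3, all higher than D0. That is 2.86% and 7.14% of those tested at D2 and D3, beside 0.553% and 1.88% of all probes. Btla, an inhibitory receptor of T and B cells, rose by 1.29 ± 0.23 (SE) at D2 and by 1.35 ± 0.23 at D3, with adjusted p values of 0.00556 and 0.00143 by limma. Ccr7, the receptor that guides lymphocytes into lymphoid tissue, rose by 0.71 ± 0.18 at D2 and 0.68 ± 0.18 at D3, with adjusted p values of 0.0474 and 0.0243. Malt1, which helps join antigen receptors to NF-kB in T and B cells, rose at D3 by 0.59 ± 0.11, with an adjusted p of 0.00269. Skap1, an adaptor of T cell adhesion, rose at D3 by 0.60 ± 0.19, with an adjusted p of 0.0470. Without mouse 17 the count at D3 was 3, with Btla and Malt1 (0.60) among them, while Ccr7 (0.58, adjusted p 0.0778) and Skap1 (0.38, adjusted p 0.10) did not, and at D2 both calls passed. Skap1 lost its call at D3 in 14 of the 20 fits that each left out 1 lung, with the deposited table, with no filter on dim probes and with only the compared groups in the fit. Malt1, just above the fold needed, lost its call in 6 of those 20 fits, with the deposited table and with the Cy5 signal alone. Without D0 mouse 2 the count at D3 was 2, and without D3 mouse 16 it was 8. The D2 count was 1 in 15 of 20 fits that each left out 1 lung, in each of which Ccr7 no longer passed. Ccr7 lost its call at D2 in 17 of the 20 fits and under 6 of 10 other settings. At D3 it lost its call in 2 of the 20 fits and under 2 of the 10 settings. With each array centred on its median 0 of these genes and 0 of all probes were called at D2 and D3 in lung. In liver 0 of 36 and in forestomach 0 of 55 tested list genes were called at any dose.

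Some B cell markers were also called in lung at D2 and D3. Of 10 B cell markers, 5 were called higher in lung at D2 and 3 at D3, among them Cd79b (1.10 and 0.80), a chain of the B cell receptor. At these doses 0.553% and 1.88% of all tested probes were called. Without mouse 17 the counts were 6 and 2, beside 0.543% and 1.48% of all probes. With each array centred on its median 0 of all probes were called in lung at D2 and D3. The mean of the 10 markers ran from 0.93 to 1.40 in D0 lungs, from 1.16 to 1.74 in D1, from 1.61 to 2.12 in D2 and from 1.40 to 1.72 in D3, and 8 to 10 of the 10 were well above background on every lung. No gene of the other immune cell lists (NK cells, macrophages, dendritic cells, neutrophils, lymph node stroma) was called in lung at D2 or D3. Btla, Ccr7 and Malt1 are expressed in B cells too, and the part of B cells in their rise was not tested.

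How the 8 genes moved together depended on mouse 17. Over the 20 lungs the median Pearson correlation of the 28 gene pairs was 0.82, and over the 19 without mouse 17 it was 0.40, from -0.48 to 0.69. Among the genes most like the mean of the CD3 chains in lung were Cd6 (r = 0.93), Tcf7 (0.92), Dntt (0.91) and Slc16a5 (0.91) over 20 arrays. Without mouse 17 they included Skap1 (0.77), H1f2 (0.75), Cd6 (0.68) and Hmgb2 (0.67) over 19 arrays. Cd6, a T cell surface receptor, was thus named in both. In liver the leading genes included Large2, Pole4, Tubg2 and Hapln3, with r of 0.77 to 0.78 over 19 arrays. In forestomach, with Cd3e and Cd3g alone, they were Tex19.2, Fut7, Wfikkn1, Atp6ap1l and Zfp397, with r of 0.82 to 0.86 over 19 arrays. All points share the reference RNA and the array platform, and the leading genes are the top of all probes with a symbol, so these are descriptions without a test. The arrays of a tissue also came from 3 slides. Slide means ran from -2.36 to -1.88 for Cd3g in forestomach and from -1.14 to -0.57 for Cd3e in liver. The part of the slide in the correlations was not tested.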

How the data were processed

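Total RNA from random sections of each tissue was labelled with Cy5 and hybridised with a Cy3-labelled reference RNA on Agilent mouse arrays. The labels name separate mice. Per the file headers, Feature Extraction 10.7.3.1 made the deposited intensity values (median spot and background signals). The authors also deposited a table of normalized log2 ratios of the same arrays, whose values correlated with those used here at r of 0.995 to 0.998 per array. The reported values are log2 ratios of the median signals after loess within each array, with no background subtraction. Spots marked as outliers were left out and spots of a probe averaged. Probes well above background on at least 4 arrays of a tissue were tested with limma 3.58.1 (R 4.3.3) on the 4 doses of that tissue. The genes and lists were chosen with earlier results of these data known. All 8 genes were named, with the list genes called at any dose and the 5 genes most correlated with the CD3 chains, except that some of these genes are not reported here. The number of arrays limits the precision. Tissue and replicate were tied by mouse number, since arrays of one number come from the same animal. The median correlation of their deviations was 0.12 for lung and liver, 0.09 for lung and forestomach and 0.05 for liver and forestomach. The limma comparison of D3 with D0 was tried on simulated lung values, without slide differences or an outlying array. The other steps were not tried in that way.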

Additional observations from a re-analysis of the deposited data

Results flagged for a closer look

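Of 96 groups of 4 or 5 arrays, 9 held a sample whose gap to the nearest of the others was large against the range of its group (Dixon's criterion), and chance gives about 1 in 20. The D3 lung of mouse 17 accounted for 6 of them, with log2 ratios of 4.55 for Cd3d (other D3 lungs 2.82 to 3.21), 0.10 for Cd3e (-1.12 to -0.96), 1.36 for Cd3g (-0.45 to -0.15), 1.33 for Lck (-0.97 to -0.70), 2.99 for Cd8a (0.50 to 0.83) and 0.22 for Cd28 (-1.41 to -1.12). The other 3 were Cd3g at -0.13 in the D2 liver of mouse 13 (others -1.75 to -1.32), Cd28 at -1.58 in the D0 forestomach of mouse 2 (others -2.13 to -2.07) and Cd28 at -1.33 in the D1 liver of mouse 9 (others -1.78 to -1.65), where Cd28 was not well above background. The forestomach of mouse 2 was the only D0 array of its slide, where Cd28 ran from -1.86 to -1.46 (mean -1.65). The means of the other forestomach slides were -2.07 and -2.05. The liver of mouse 9 was the only D1 array of its slide, where Cd28 ran from -1.58 to -1.33. On the other liver slides it ran from -1.77 to -1.25 and from -1.78 to -1.64. The part of the slide was not tested.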

How the results depend on the processing

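Settings tried one at a time were the authors' deposited table, normexp with an offset of 50, processed signals, median centring, the Cy5 signal alone, other filters on dim probes, the slide as a block, the compared groups alone, no minimum fold, the mouse as a replicate block and leaving out each mouse. The dose counts of receptor complex genes stayed at 0 under all of them, apart from the slope in lung, where leaving out 1 lung gave 0 to 1. Between D0 tissues the counts ran from 5 to 7 for lung and liver and from 4 to 6 for lung and forestomach. For liver and forestomach they ran from 2 to 5, with 2 under median centring, and leaving out 1 mouse gave 2 to 4 (2 without mouse 5), with Cd3e at -0.28 and Cd3g at -0.21 turned in sign by median centring. Entering the mouse as a replicate block gave 5, 5 and 4 called genes between D0 tissues and 0, 0 and 0 for the interactions, the same genes as without it, so the pairing changed no call.

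List genes called in lung at D2 and D3 were 1 and 3 with the deposited table, 4 and 10 with processed signals and 0 and 0 with median centring. They were 1 at D2 with the slide as a fixed block, and 1 in liver at D2 with processed signals. Leaving out 1 lung, added after seeing the data, gave 1 to 3 at D2 and 2 to 8 at D3. Under median centring the middle change over all lung probes was 0.18, 0.37 and 0.15 at D1, D2 and D3, and the cause of the lost calls was not tested. Over single genes and the settings other than leaving out a mouse, 1143 alternatives kept their side of the threshold, 22 lost a call, 9 gained one and 2 were reversed, and 68 sign changes of values not called were not counted as reversals. Leaving out each mouse kept 2158, lost 45 and gained 4, with 110 such sign changes. Dim signal limited Cd8a and Cd28 in liver and Cd3d and Cd8a in forestomach.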

Other observations

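Other probes set the lung of mouse 17 apart, and the genes named here were chosen after their values were seen. Ccl25, a chemokine of thymic epithelium, was 1.98 there and -1.28 to -0.85 in the other 19 lungs. Prss16, the thymus-specific serine protease, was 2.37 against -1.80 to -0.75, and Ccr9, the receptor of Ccl25, was 1.44 against -1.12 to -0.45. After Dntt, with a gap of 4.88 to the next lung, Tbata, a thymus and brain gene, had the largest gap, 3.12. Cd8a was the first of the receptor complex genes in that order, with a gap of 2.02. In the liver of the same mouse Prss16 was -0.79, and in its forestomach it was -0.97.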
